A study of Mus musculus with 6 samples.

Results

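Neutrophil granule genes are described here in the nasomaxillary complex, the bone, cartilage and soft tissue of the nose and upper jaw, of mouse embryos. The members were taken by gene symbol: the calprotectin genes S100a8 and S100a9, the primary granule genes Mpo, Elane, Prtn3 and Ctsg, and the secondary granule genes Ltf, Camp, Ngp and Lcn2. All 10 were present among 24346 gene symbols. The 3 mutant libraries came from E17.5 embryos with both Pth1r alleles floxed and Wnt1-Cre, and the 3 control libraries from E17.5 embryos with both Pth1r alleles floxed and no Cre. Floxed Pth1r, which encodes a receptor that skeletal cells use to sense parathyroid hormone and its related peptide, is thus common to both groups. The controls lack Cre, so what the transgene does and what loss of the receptor does cannot be told apart. Wnt1-Cre recombines in neural crest cells, from which much of the facial skeleton derives. No embryo was treated. The labels number no replicates, so the numbers 1 to 3 used below only name libraries and pair none of them. Nothing in the labels tells whether each library is its own embryo, litter or pool. The p-values therefore reflect only how far these libraries spread, which may be technical.

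Neutrophils are white blood cells that descend from blood-forming stem cells, and they pack antimicrobial proteins into granules as they mature. Primary granule genes are transcribed early, at the promyelocyte stage, and are silent in mature neutrophils. Secondary granule genes are transcribed later, at the myelocyte and metamyelocyte stages, while calprotectin is the most abundant protein of the cytosol of mature neutrophils. Several of these genes are not restricted to neutrophils: squamous epithelium makes calprotectin, and glands and mucosal epithelium make Ltf and Lcn2.

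The calprotectin pair and the pair Camp and Ngp are the members whose values are compared most closely below, so the 250 bases before their RefSeq transcription starts (build GRCm38.p6) are shown for both pairs. S100a8 lies on chr3:90668821-90669070, plus strand, S100a9 on chr3:90695722-90695971, minus strand, Camp on chr9:109849457-109849706, minus strand, and Ngp on chr9:110419558-110419807, plus strand. Capitals mark 3 motifs found by letters on either strand: TTNNGNAA, a loose form of the site of C/EBP factors, GAGGAA, a core of the site of PU.1, and the TATA box TATAAA. No 2 matches overlap in these 4 sequences.
S100a8: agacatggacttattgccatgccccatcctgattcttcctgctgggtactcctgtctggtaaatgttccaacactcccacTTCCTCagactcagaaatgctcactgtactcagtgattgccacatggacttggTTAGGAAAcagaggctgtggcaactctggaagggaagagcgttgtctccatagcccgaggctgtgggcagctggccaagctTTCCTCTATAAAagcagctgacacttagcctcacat
S100a9: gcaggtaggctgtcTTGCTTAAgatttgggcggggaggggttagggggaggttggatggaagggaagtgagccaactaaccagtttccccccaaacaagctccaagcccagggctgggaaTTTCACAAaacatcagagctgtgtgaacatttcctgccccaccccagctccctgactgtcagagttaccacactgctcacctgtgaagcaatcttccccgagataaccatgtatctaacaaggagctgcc
Camp: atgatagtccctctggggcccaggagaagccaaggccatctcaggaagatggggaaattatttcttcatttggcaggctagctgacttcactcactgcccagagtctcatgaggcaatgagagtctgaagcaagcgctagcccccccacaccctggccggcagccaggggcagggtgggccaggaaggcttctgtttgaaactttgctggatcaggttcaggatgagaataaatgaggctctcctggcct
Ngp: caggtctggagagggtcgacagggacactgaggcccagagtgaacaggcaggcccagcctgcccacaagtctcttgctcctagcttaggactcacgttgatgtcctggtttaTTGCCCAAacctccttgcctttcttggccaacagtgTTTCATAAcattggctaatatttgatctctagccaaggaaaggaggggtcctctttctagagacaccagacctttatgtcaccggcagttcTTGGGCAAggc

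C/EBP factors and PU.1 are transcription factors that direct myeloid differentiation. Over the 10 members, 5 held TTNNGNAA in this window, 7 held GAGGAA and 2 held TATAAA. Among 32851 RefSeq promoters of the same length these motifs were found in 36.8%, 23.3% and 12.4%. S100a8 held all 3 kinds, Ngp held 3 matches to TTNNGNAA, S100a9 held 2 of them, and Camp held none of the 3 kinds.

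The values are FPKM, fragment counts divided by transcript length and by library size, so levels can be compared between genes as well as between libraries. Total FPKM ran from 514777 to 525626 in mutant and from 514693 to 546322 in control libraries. The spacing of low values gave library sizes relative to control replicate 1 of 1.02, 0.903 and 0.671 for mutant replicates 1 to 3, and of 1.11 and 0.938 for control replicates 2 and 3. Mutant replicate 3 was therefore the shallowest. Pth1r itself measured 75.1 ± 4.73 FPKM in mutant and 68.0 ± 11.1 FPKM in control libraries (SD, n = 3 each), which covers floxed and other exons together and so is no test of the genotype. By Xist and 4 Y-linked genes, 1 of the 3 mutant and all 3 control libraries were female.

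The members covered a wide range of levels. S100a9, Ltf and S100a8 averaged 49.3, 49.0 and 48.3 FPKM over the 6 libraries, above 88.5%, 88.4% and 88.2% of the tested genes. Lcn2 averaged 23.4 FPKM. Ngp, Prtn3 and Camp stood much lower, at 3.29, 3.27 and 1.86 FPKM. Elane, Mpo and Ctsg averaged 0.247, 0.239 and 0.131 FPKM. The levels of S100a9, Ltf and S100a8 do not differ beyond their spread between libraries, and neither do those of Ngp and Prtn3 or of Elane and Mpo. The members are a textbook set, but not all of them kept one ratio. Ngp was 1.47 to 2.84 times Camp in mutant and 1.29 to 2.21 times Camp in control libraries, while Ltf was between 8.69 and 24.1 times Ngp in mutant libraries and between 12.6 and 40.6 times Ngp in control libraries, although all 3 encode secondary granule proteins.

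**Figure D1:**
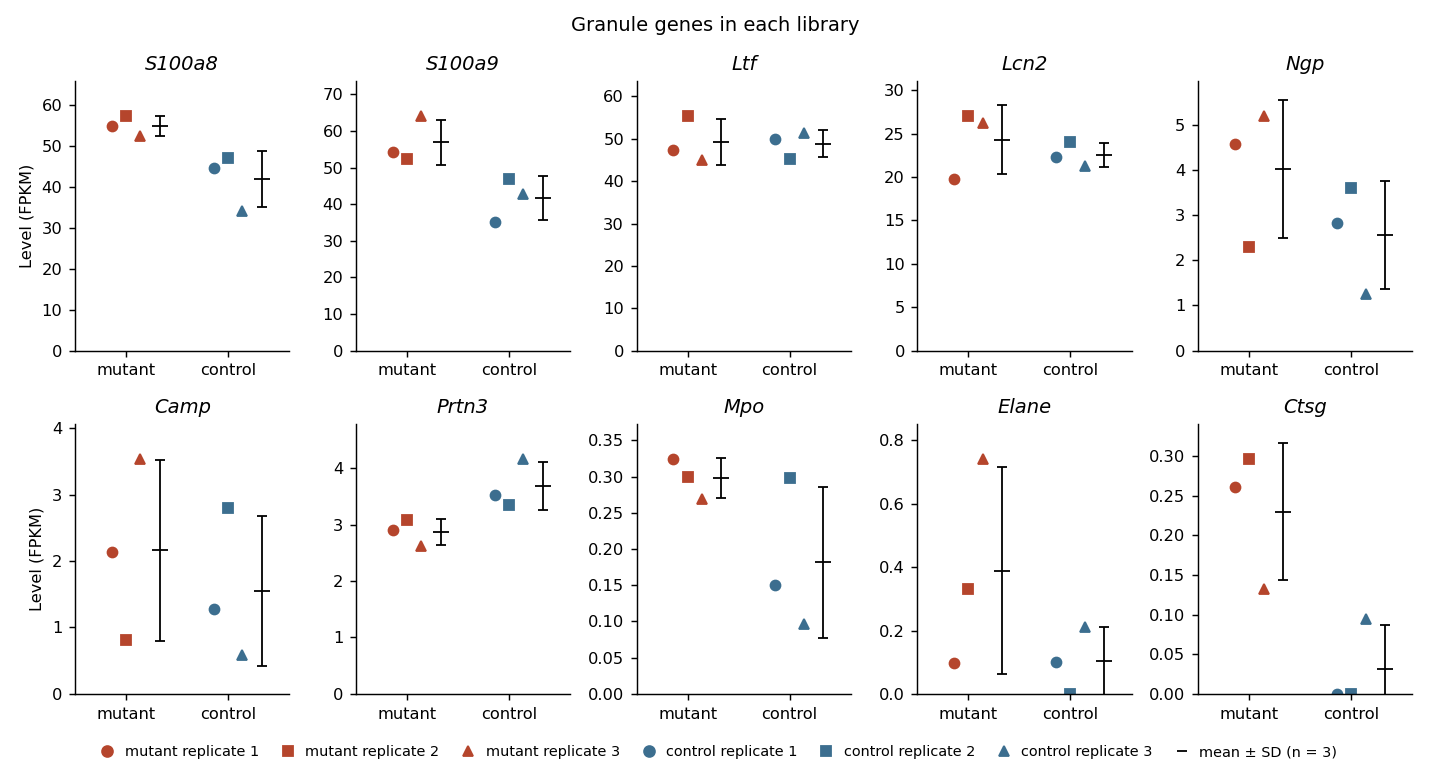
FPKM of the 10 granule genes (vertical axes, linear, each with its own scale) in the 3 mutant and 3 control libraries, with mean ± SD beside the points and SD bars cut at 0. S100a8, S100a9, Prtn3 and Ctsg show no overlap between groups, while Camp and Ngp spread widely inside both groups.

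Mutant was compared with control by limma on log2(FPKM + 1). Genes averaging 1 FPKM or more across all libraries were tested, which kept 7 members, and Mpo, Elane and Ctsg did not reach that level. None of the 7 was called at a Benjamini-Hochberg adjusted p under 0.05 over all 14766 tested genes, of which 39 (0.264%) were called, 0.061% higher and 0.203% lower in mutant libraries. At an unadjusted limma p under 0.05 there were 3 members, against 11.3% of all tested genes, namely S100a8 and S100a9 with positive changes (5.35% of all tested genes) and Prtn3 with a negative one (5.96%). The same 3 of 7 showed no overlap between groups, against 17% of all tested genes (7.85% higher and 9.16% lower in mutant libraries). The median log2 change of the 7 was 0.30, beside -0.0020 over all tested genes, and 6 of the 7 changes were positive, against 49.2% of all tested genes. Bulk values cannot tell fewer cells of a type from less RNA per cell.

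**Figure D2:**
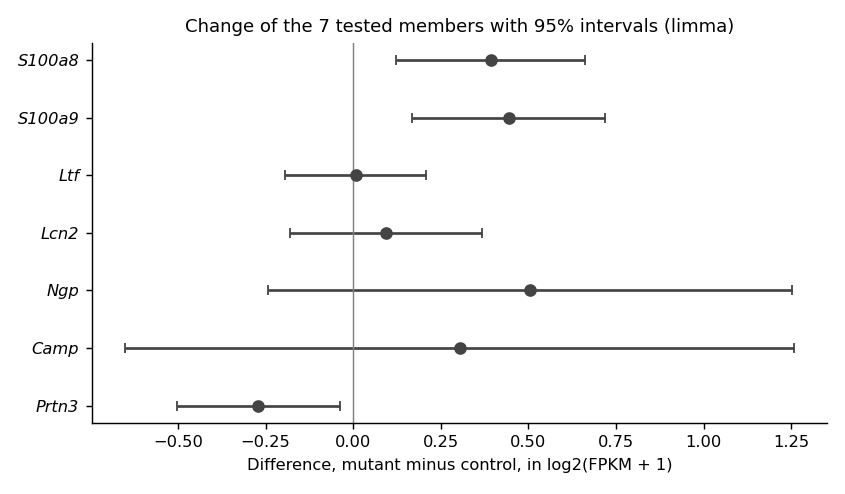
Difference between mutant and control in log2(FPKM + 1) for the 7 tested members (points) with 95% intervals from limma (bars). The intervals of S100a8, S100a9 and Prtn3 leave out 0 without adjustment for 14766 genes, and the intervals of Ngp and Camp are the widest.

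S100a8 and S100a9 encode the subunits of calprotectin, a dimer that binds calcium and withholds zinc and manganese from microbes. S100a8 (chromosome 3, 90668978 to 90670035, plus strand, GRCm38) measured 54.8, 57.3 and 52.3 FPKM in mutant replicates 1 to 3, against 44.6, 47.0 and 34.1 FPKM in control replicates 1 to 3. Every mutant value lay above every control value, and control replicate 3 was the lowest of all. The mutant mean was 1.31 times the control mean, with a log2 change of 0.39 ± 0.11 (SE) and a limma adjusted p of 0.297. S100a9, on the opposite strand (90692632 to 90695721, minus strand), measured 54.2, 52.4 and 64.0 FPKM in mutant replicates 1 to 3, against 35.2, 47.0 and 42.9 FPKM in control replicates 1 to 3. Its groups did not overlap either, but its lowest library was control replicate 1. The mutant mean was 1.36 times the control mean, with a log2 change of 0.44 ± 0.12 (SE) and a limma adjusted p of 0.265.

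The 6 values of S100a8 were whole multiples of a single step. This puts at least 142, 131 and 89 fragments behind the mutant values and at least 113, 132 and 81 behind the control values. Counting error alone gave a 95% Poisson interval of 42.0 to 64.4 FPKM for the lowest mutant library and of 39.3 to 55.7 FPKM for the highest control library, so the intervals of these single libraries overlap. Fragments summed over each group gave 55.0 FPKM (95% Poisson interval 49.5 to 61.0) in mutant and 42.2 FPKM (37.8 to 47.1) in control libraries, intervals that do not overlap but leave out the spread between libraries. The ratio of S100a9 to S100a8 was 0.916 to 1.22 in mutant and 0.790 to 1.26 in control libraries. Both genes were thus near equal in level in each library. S100a7a, the next gene measured beside S100a8, 10308 bases away, averaged 5.43 FPKM in mutant and 5.15 FPKM in control libraries, with a log2 change of 0.075 ± 0.16 (SE).

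Squamous epithelium is another source of calprotectin, and its markers differed between the libraries. Of 15 keratinizing epithelium genes, all tested, 14 had positive changes, against 49.2% of all tested genes, and 0 were called. An unadjusted limma p under 0.05 was seen for 9, all positive, against 5.35% of all tested genes in that direction. None of the 15 was at 0 in any library. Their summed level was 2159 to 2677 FPKM in mutant and 979 to 2097 FPKM in control libraries, and their median log2 change was 0.73. Krt1, a keratin of cornifying epidermis, measured 512 ± 30.4 FPKM in mutant and 248 ± 149 FPKM in control libraries, and its partner Krt10 measured 558 ± 22.8 and 335 ± 184 FPKM in mutant and control libraries (SD, n = 3 each). Control replicate 3 was lowest for this list and for S100a8. S100a9 ran otherwise: it was lowest in control replicate 1, which had the highest keratinizing sum of the controls, and highest in mutant replicate 3, which had the lowest of the mutants. The part of epithelium in the calprotectin values was not tested.

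Ltf and Lcn2 encode secreted proteins that keep iron from bacteria, lactoferrin by binding iron and lipocalin 2 by binding bacterial siderophores. Ltf (chromosome 9, 111019271 to 111042767, plus strand) measured 47.2, 55.3 and 45.1 FPKM in mutant replicates 1 to 3, against 49.9, 45.3 and 51.3 FPKM in control replicates 1 to 3. The groups overlapped, and the highest library was 1.23 times the lowest. Its log2 change was 0.0067 ± 0.086 (SE, limma adjusted p = 0.986), with a 95% interval of 0.874 to 1.16 for the fold on the FPKM + 1 scale. Lcn2 (chromosome 2, 32384633 to 32388252, minus strand) measured 19.8, 27.0 and 26.2 FPKM in mutant replicates 1 to 3, against 22.3, 24.1 and 21.3 FPKM in control replicates 1 to 3. Mutant replicate 1 was the lowest and mutant replicate 2 the highest, so the control values lay inside the mutant range. The log2 change was 0.093 ± 0.12 (SE), the limma adjusted p was 0.818, and the interval of the fold ran from 0.883 to 1.29.

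Genes of nasal glands and secretory epithelium, which also make these proteins, were abundant in the same libraries. Bpifa1, an airway surface protein, averaged 1219 FPKM in mutant and 1098 FPKM in control libraries, and Reg3g, an antibacterial lectin of mucosal epithelium, averaged 455 and 406 FPKM in mutant and control libraries. Of the 11 genes on this list 8 were tested, 7 of them had positive changes (against 49.2% of all tested genes), and 0 were called. The summed level was 1642 to 1834 FPKM in mutant and 1434 to 1725 FPKM in control libraries, and Scgb1a1, a club cell secretory gene picked because it held a 0, was listed at 0 in control replicate 1. How much of Ltf and Lcn2 came from epithelium was not tested.

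Camp encodes the precursor of the antimicrobial peptide cathelicidin, and Ngp encodes neutrophilic granule protein, a secondary granule protein of mice. Ngp (chromosome 9, 110419747 to 110423012, plus strand) measured 4.57, 2.30 and 5.18 FPKM in mutant replicates 1 to 3, against 2.81, 3.61 and 1.26 FPKM in control replicates 1 to 3. Camp (chromosome 9, 109847379 to 109849617, minus strand) measured 2.14, 0.808 and 3.53 FPKM in mutant replicates 1 to 3, against 1.28, 2.79 and 0.583 FPKM in control replicates 1 to 3. In both genes mutant replicate 3 was the highest library, control replicate 3 the lowest and mutant replicate 2 the next lowest, and the groups overlapped. The log2 change of Ngp was 0.50 ± 0.32 (SE, limma adjusted p = 0.603), and its fold interval ran from 0.845 to 2.38 on the FPKM + 1 scale. For Camp the log2 change was 0.30 ± 0.41 (SE, limma adjusted p = 0.833), with an interval of 0.637 to 2.39. The spread inside groups was the largest of the tested members. The SD of Camp was 63.0% of the mean in mutant and 72.9% in control libraries. That of Ngp was 37.9% in mutant and 46.5% in control libraries. Over all 6 libraries, the highest had 6.06 times the Camp and 4.10 times the Ngp of the lowest.

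The step of the low values put 12, 4 and 13 fragments behind Camp in mutant replicates 1 to 3 and 7, 17 and 3 in control replicates 1 to 3. For Ngp there were 63, 28 and 47 fragments in mutant and 38, 54 and 16 in control replicates 1 to 3. The 95% Poisson interval of Ngp was 3.81 to 6.89 FPKM in mutant replicate 3, the highest, and 0.722 to 2.05 FPKM in control replicate 3, the lowest, so these 2 libraries differed by more than counting error. Summed over each group, Ngp gave 3.94 FPKM (3.31 to 4.65) in mutant and 2.62 FPKM (2.15 to 3.17) in control libraries, again without the spread between libraries. Across the 6 libraries Camp and Ngp had a Pearson r of 0.92 on log2(FPKM + 1) (exact permutation p = 0.0097, adjusted p = 0.124 over 21 pairs of members) and a Spearman rho of 0.94 (exact permutation p = 0.0167, adjusted p = 0.117). Without mutant replicate 3 and control replicate 3, the farthest libraries, r was 0.84 over 4 libraries. Ltf and Camp had an r of -0.91 (exact permutation p = 0.0167, adjusted p = 0.124) and a rho of -0.94 (exact permutation p = 0.0167, adjusted p = 0.117), and r was -0.98 over the 4 libraries without mutant replicates 2 and 3. No pair of members passed the adjustment. S100a8 and S100a9 had an r of 0.61 (exact permutation p = 0.207, adjusted p = 0.461) and a rho of 0.71 (exact permutation p = 0.136, adjusted p = 0.318). Their r was 0.85 without mutant replicate 2 and control replicate 3. Taken as deviations from the mean of each group, S100a8 and S100a9 had an r of -0.19. The same r inside groups was 0.95 for Camp and Ngp and -0.96 for Ltf and Camp.

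**Figure D3:**
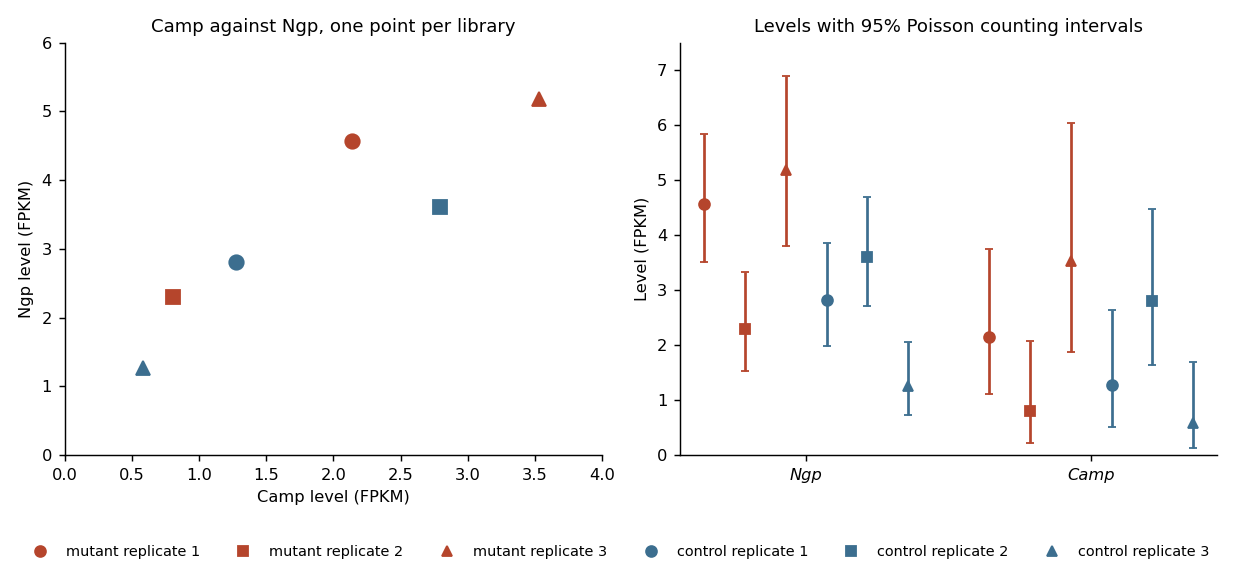
Left, Ngp against Camp in FPKM, 1 point per library. Right, Ngp and Camp in FPKM in each library with 95% Poisson intervals from the recovered fragments, which cover counting error only. Mutant replicate 3 is highest and control replicate 3 lowest for both genes.

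Red cell genes also varied widely inside both groups. Hbb-b1, an adult beta globin gene and the highest of its list, measured 1102, 707 and 1216 FPKM in mutant replicates 1 to 3, against 1056, 1569 and 537 FPKM in control replicates 1 to 3. Hba-a1, the alpha globin gene that was next highest in the list, measured 1130.4, 693 and 1102.5 FPKM in mutant replicates 1 to 3, against 945 (control replicate 1), 1377 (control replicate 2) and 549.97 FPKM (control replicate 3). As for Camp and Ngp, both globins were lowest in replicate 2 of the mutant and in replicate 3 of the control libraries, and their highest control library was replicate 2. The highest mutant library was replicate 3 for Hbb-b1, Camp and Ngp but replicate 1 for Hba-a1. Slc4a1, a red cell anion exchanger gene picked with its values in view, was lowest of the controls in replicate 1 (0.614 FPKM), not replicate 3 (0.707 FPKM). The erythroid list had 11 genes in the files, 5 of them tested and 0 called, with a summed level of 1413 to 2365 FPKM in mutant and 1116 to 2996 FPKM in control libraries. Picked because they held a 0, Hbb-bs and Rhag were listed at 0 in mutant replicate 2, and Rhag and Epb4.2 in mutant replicate 3. The summed level was lowest in control replicate 3. Globin genes share reads with near-identical copies, so their values are uncertain. The part of blood content in the Camp and Ngp values was not tested.

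Primary granule genes were near the limit of these libraries, apart from Prtn3. Mpo, which encodes the myeloperoxidase that makes hypochlorous acid (chromosome 11, 87793581 to 87804413, plus strand), measured 0.324, 0.300 and 0.269 FPKM in mutant replicates 1 to 3, against 0.1503, 0.298 and 0.0961 FPKM in control replicates 1 to 3. These values rest on 26 fragments in the mutant and 19 in the control libraries, and the groups overlapped. Elane, the gene of neutrophil elastase (chromosome 10, 79886247 to 79888215, plus strand), measured 0.0978, 0.330 and 0.740 FPKM in mutant replicates 1 to 3, or 1, 3 and 5 fragments. In control replicates 1 and 3 it measured 0.0996 and 0.212 FPKM, or 1 and 2 fragments, and it was at 0 in control replicate 2, which allows up to 0.269 FPKM (3 fragments). Ctsg, the gene of the protease cathepsin G (chromosome 14, 56099881 to 56102574, minus strand), measured 0.261, 0.296 and 0.133 FPKM in mutant replicates 1 to 3, or 3, 3 and 1 fragments. In control replicate 3 it measured 0.0949 FPKM, 1 fragment, and it was at 0 in control replicates 1 and 2, which allows up to 0.267 and 0.241 FPKM. The groups of Ctsg did not overlap, but a sum of 7 fragments in mutant (95% Poisson interval 2.81 to 14.4) and 1 in control libraries (0.0253 to 5.57) leaves intervals that overlap. No difference was detectable at this depth for these 3 genes, which had limma adjusted p between 0.362 and 0.600 where no filter was used.

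Prtn3 encodes proteinase 3, a serine protease stored with elastase, and its gene lies 3072 bases from Elane (chromosome 10, 79874476 to 79883174, plus strand). It measured 2.91, 3.08 and 2.63 FPKM in mutant replicates 1 to 3, against 3.53, 3.35 and 4.15 FPKM in control replicates 1 to 3. Every mutant value lay below every control value, in the opposite direction to calprotectin. The mutant mean was 0.781 times the control mean, with a log2 change of -0.27 ± 0.099 (SE) and a limma adjusted p of 0.382. Fragments numbered 32, 30 and 19 in mutant and 38, 40 and 42 in control replicates 1 to 3.

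Prtn3 stood apart from its granule partners in level. It was 8.98 to 10.3 times Mpo in mutant libraries and 11.2 to 43.2 times Mpo in control libraries. In the GENCODE annotation the longest model of Prtn3 overlaps Plppr3, a neuronal membrane protein gene on the opposite strand, by 159 bases. Plppr3, listed under the older symbol Lppr3, measured 36.6 to 46.8 FPKM in mutant and 44.5 to 47.0 FPKM in control libraries. The 250 bases before the RefSeq start of Prtn3 run from 79879417 to 79879666, beyond the end of Plppr3 at 79874634, so the RefSeq model does not reach that stretch. Whether the authors' model of Prtn3 reached it, and whether counting used strand, is not given in the sources used here, so reads there cannot be told apart.

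Camp, Ngp and Ltf share chromosome 9 with the floxed gene. Ngp lies 299.1 kb and Camp 872.5 kb from Pth1r at lower coordinates, and Ltf lies 272.1 kb away at higher coordinates. The genes beside Ngp, Ptpn23 and Klhl18, averaged 23.6 and 7.30 FPKM in mutant and 23.3 and 7.36 FPKM in control libraries, with log2 changes of 0.018 and -0.010. Those beside Camp, Nme6 and Cdc25a, had log2 changes of -0.022 and -0.063. None of these 4 neighbours was called by limma. Ccrl2, a chemoattractant-binding receptor gene 11718 bases from Ltf, averaged 1.09 FPKM in mutant and 0.574 FPKM in control libraries, and Lpo, the lactoperoxidase gene 2014 bases from Mpo, averaged 0.793 and 0.786 FPKM in mutant and control libraries. Both averaged under 1 FPKM over all libraries and were not tested.

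Genes of the neutrophil program, not all of them restricted to neutrophils, were taken from lists of neutrophil granules, receptors, oxidase and growth factors. No gene of these lists was called. Of 24 other granule and cytosol genes 18 were tested, and 17 of them had positive changes, against 49.2% of all tested genes. An unadjusted limma p under 0.05 was seen for 6, all positive, against 5.35% of all tested genes in that direction. Among the 6 were the stefin A genes Stfa1 and Stfa2, picked on their values, and BC100530. The median log2 change of the list was 0.16. Anxa1, which encodes the anti-inflammatory protein annexin A1, measured 248 ± 8.83 FPKM in mutant and 223 ± 9.34 FPKM in control libraries (SD, n = 3 each; log2 change 0.15, limma adjusted p = 0.362). BC100530, a stefin A gene encoding a cysteine protease inhibitor, measured 346, 303 and 196 FPKM in mutant replicates 1 to 3, against 116, 70.9 and 33.3 FPKM in control replicates 1 to 3 (log2 change 2.05 ± 0.43 SE, limma adjusted p = 0.167). The groups were apart, with control replicate 3 the lowest. Inside each group BC100530 fell from replicate 1 to replicate 3, as did the summed level of the keratinizing epithelium list. That sum was 2677, 2505 and 2159 FPKM in mutant and 2097, 1445 and 979 FPKM in control replicates 1 to 3. Anxa1 did not follow that order. It measured 238, 252 and 255 FPKM in mutant and 229, 213 and 228 FPKM in control replicates 1 to 3. The part of epithelium in the values of the granule and cytosol list was not tested. Stefin A genes are near-identical copies, so reads may be split between them. Retnlg, a resistin-like gene of neutrophils chosen after its values were seen, measured 5.23, 5.52 and 5.84 FPKM in mutant replicates 1 to 3, against 3.21, 4.02 and 3.23 FPKM in control replicates 1 to 3. Its groups did not overlap, with a log2 change of 0.55 ± 0.094 (SE) and a limma adjusted p of 0.103, on 80 fragments in mutant and 60 in control libraries. Chil3 and Lrg1, also chosen after their values were seen, were lower in mutant libraries without overlap. Chil3, below the filter, measured 0.104, 0 and 0.0788 FPKM in mutant and 0.212, 0.286 and 0.226 FPKM in control replicates 1 to 3. It rested on 3 fragments in mutant and 14 in control libraries. Lrg1 averaged 3.70 FPKM in mutant and 4.27 FPKM in control libraries (limma adjusted p = 0.485).

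Of 19 neutrophil surface receptor genes 18 were in the files and 8 were tested, with 7 positive changes (against 49.2% of all tested genes) and a median of 0.17. Ly6g was not analysed here. Cxcr4, the chemokine receptor that holds neutrophils in the marrow, averaged 21.8 FPKM in mutant and 24.7 FPKM in control libraries, and Fcgr3, an antibody receptor shared with macrophages, averaged 9.68 and 8.88 FPKM in mutant and control libraries. Csf3r, the receptor of granulocyte colony-stimulating factor, and Cxcr2, the receptor that draws neutrophils out of the blood, were chosen after their values were seen. Csf3r measured 1.67, 1.73 and 1.69 FPKM in mutant replicates 1 to 3, against 1.22, 1.54 and 1.25 FPKM in control replicates 1 to 3 (log2 change 0.21 ± 0.11 SE, limma adjusted p = 0.514). Cxcr2 averaged 0.965 FPKM in mutant and 0.669 FPKM in control libraries and did not pass the filter. The levels of Csf3r and Cxcr2 thus lay between those of Mpo and Ngp.

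All 6 NADPH oxidase genes, which make the superoxide of the respiratory burst, were tested, with 4 positive changes (against 49.2% of all tested genes) and a median of 0.020. Cyba averaged 55.9 FPKM in mutant and 55.2 FPKM in control libraries, and Rac2 averaged 7.37 and 6.46 FPKM in mutant and control libraries. Among 16 granulopoiesis factors 12 were tested, with 7 positive changes and a median of 0.014. Cxcl12, the marrow chemokine bound by Cxcr4, averaged 105.7 FPKM in mutant and 88.7 FPKM in control libraries without overlap (log2 change 0.24 ± 0.10 SE, limma adjusted p = 0.430). Myb, a factor of blood progenitors, averaged 14.98 and 14.6 FPKM in mutant and control libraries. Cebpe, the factor required for secondary granule genes and chosen after its values were seen, rested on 2, 2 and 1 fragments in mutant and 2, 6 and 5 in control replicates 1 to 3.

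**Figure D4:**
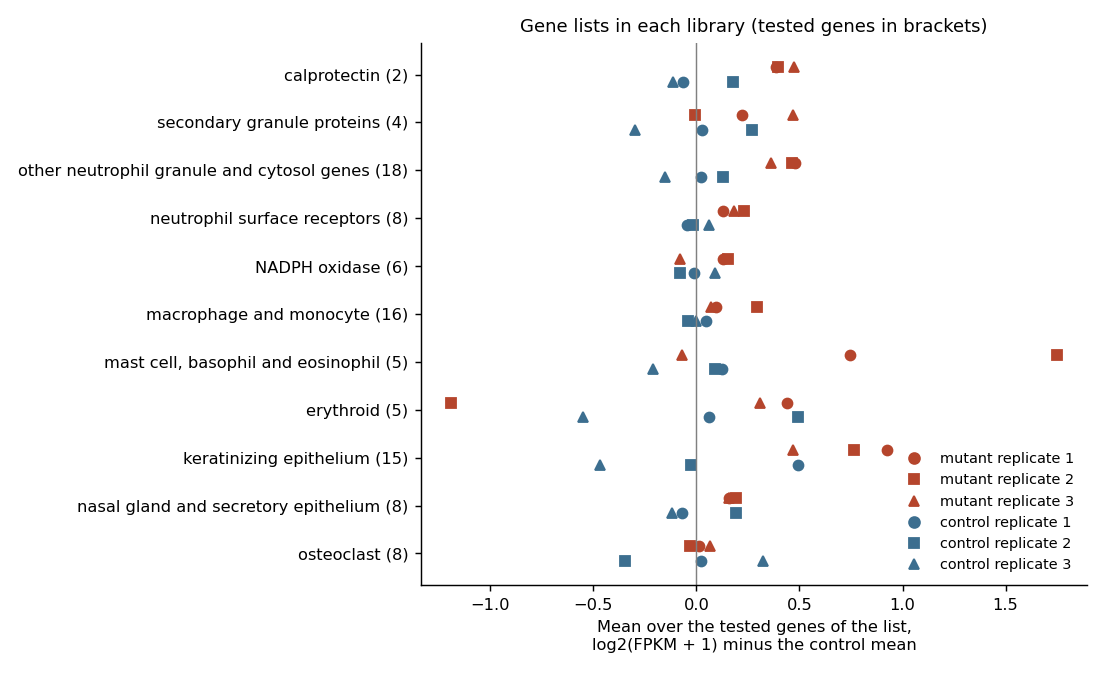
Mean over the tested genes of each list of log2(FPKM + 1) minus the control mean (horizontal axis) in each library, with mutant above control in each row. Every mutant library lies above every control library in the calprotectin, other granule, surface receptor and macrophage lists. In the macrophage list the margin is small (lowest mutant library 0.0685, highest control library 0.0463). Among single tested genes 17% showed no overlap between groups in either direction, and 7.85% lay higher in mutant libraries. These shares are for single genes, not for means over lists. In mutant replicate 2 the mast cell list is highest and the erythroid list lowest, with Hbb-bs, 1 of its 5 tested genes, listed at 0 there.

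The same mean, over the tested genes of lists not drawn, was 0.0312 to 0.0744 in mutant and at most 0.0127 in control libraries for the granulopoiesis factors. For the primary granule genes, where Prtn3 was the only gene tested, it was -0.363 to -0.192 in mutant and -0.102 to 0.144 in control libraries.

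Markers of other cells in the dissection gave these values, again with no gene called. Over all tested genes 49.2% of changes were positive. Of 17 macrophage and monocyte genes 16 were tested and 15 had positive changes, with a median of 0.13 and a summed level of 165 to 187 FPKM in mutant and 148 to 174 FPKM in control libraries. Cd68 averaged 29.6 and 28.5 FPKM, and C1qb 27.9 and 25.3 FPKM, in mutant and control libraries. Mast cell, basophil and eosinophil genes summed to 94.2, 204 and 50.3 FPKM in mutant replicates 1 to 3, against 57.8, 57.0 and 46.1 FPKM in control replicates 1 to 3, so that mutant replicate 2 stood apart. In that list, with 5 of 13 genes tested and 4 positive changes, Cma1 and Tpsb2, both mast cell proteases, averaged 31.4 and 31.3 FPKM in mutant and 11.7 and 12.2 FPKM in control libraries. The mast cell order, highest in mutant replicate 2, was not that of Camp and Ngp. Osteoclast genes summed to 375 to 440 FPKM in mutant and 327 to 538 FPKM in control libraries, with 4 of 8 changes positive. Ctsk averaged 228 and 247 FPKM, and Acp5 136.8 and 132 FPKM, in mutant and control libraries. Lymphoid genes were low, with 1 of 12 tested, Cd79b at 1.83 and 1.51 FPKM, and Cd79a at 0.840 and 0.726 FPKM, in mutant and control libraries. Dntt, picked because it held a 0, was at 0 in all 6. Of 7 megakaryocyte genes 3 were tested and 1 change was positive, with Pf4 at 19.6 and 17.3 FPKM and Itga2b at 4.63 and 4.72 FPKM in mutant and control libraries.

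The pattern of the 7 tested members over the 6 libraries was summarised as the mean of their z-scores, and the other 14759 tested genes were ranked by Pearson r with it, as a description. Cdk20 (0.995), Rnd2 (0.992), Rnd3 (0.989), Csn3 (0.986), Rnf208 (0.986), Rasd1 (0.984), Diras2 (0.982), Gtpbp1 (0.981), Apol10a (0.980) and Apod (0.980) had the highest r. None of these 10 was on any of the cell type lists. With 6 libraries 41 genes (0.278%) reached an r of 0.95. Among the members themselves r with the mean ran from -0.897 for Prtn3 and -0.207 for Ltf to 0.871 for S100a8, so the mean does not stand for a pattern that all members share.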

How the data were processed

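Messenger RNA of 3 mutant and 3 control libraries, grouped by the genotype label, was analysed. The RNA came from a TRIzol extraction followed by a stranded mRNA kit, per the labels' protocols. Per the submitters' processing notes, build mm10 was used with Cuffdiff 2.2.1, TopHat2 2.1.1, SAMtools 0.1.18 and Bowtie2 2.2.8. Which annotation, filter and strand option were applied is not given in the sources used here. Per the file headers, each library has an FPKM for every gene symbol, computed by the authors.

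Values were tested as log2(FPKM + 1) where the mean over all libraries reached 1 FPKM, with limma 3.58.1 in R 4.3.3 (trend, two-sided, no covariate, Benjamini-Hochberg over 14766 genes). A change on this scale understates that of low genes. Fragments were read as the largest step that made all 6 values, multiplied by relative library size, whole within 0.01. This worked for 8 of 10 members, not for S100a9 and Ltf. A factor shared by all 6 counts would make them larger. The FPKM of 1 fragment in control replicate 1, times the longest coding transcript in kb, was 0.192 for S100a8. For the other members read this way it was 0.0827 (Mpo) to 0.138 (Camp). Whether a shared factor lies behind the value of S100a8 was not tested. Intervals are exact Poisson at 95%, and 3 fragments set the limit at 0; both cover counting error only. Correlations used exact permutation (smallest p 0.00278), two-sided. Positions are from GENCODE M21 (GRCm38, the same coordinates as mm10), and promoters from RefSeq GRCm38.p6, which matched 10 of 10 members. The members and the 15 gene lists (171 genes, 169 in the files, 2 under another symbol) were chosen with earlier results of these data known. Genes were named by rule: all members, the 2 genes of highest mean and any called gene of each list, the 10 genes most like the members, Pth1r and neighbours, of which a selection is printed. Other list genes are marked as picked or chosen on their values. On simulated data made from the 14766 genes of this comparison, limma recovered 89.5% of genes changed 2-fold and 98.2% of those changed 4-fold on the log2(FPKM + 1) scale, with 4.21% false calls. Changes as small as those of the tested members were not simulated, so these rates do not tell how often such changes would be called. Alternatives covered the pseudocount, filter, scaling, variance model, library weights, sex, threshold and each library left out.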

Additional observations from a re-analysis of the deposited data

How the results depend on the processing

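The count of granule members called was 0 in the main analysis and in all 18 alternatives, with limma adjusted p from 0.176 (S100a9, library weights) to 0.9993 (5 members, sex as a covariate). S100a8, S100a9 and Ngp kept positive changes and Prtn3 a negative one in every alternative that tested them. Leaving out each library in turn gave 0.25 to 0.48 for S100a8, 0.33 to 0.53 for S100a9, 0.21 to 0.78 for Ngp and -0.32 to -0.20 for Prtn3. It gave -0.0051 (without mutant replicate 3) to 0.66 for Camp, -0.079 (without mutant replicate 2) to 0.066 for Ltf, which was -0.045 without control replicate 2, and 0.014 to 0.23 for Lcn2. With library weights Ltf was -0.026 and Lcn2 -0.0080. With sex as a covariate Ltf was -0.045 and Lcn2 -0.18. Mutant replicate 1 was the only female mutant library, and all control libraries were female. The fit with sex therefore compared mutant replicate 1 alone with the controls. Why library weights changed the signs of Ltf and Lcn2 was not tested. The count of all genes called, 39, became 18 with no filter, 19 without trend, 71 with library weights, 10 with sex as a covariate and 80 at an adjusted p under 0.1, and 17 to 44 when each library was left out: 24 without mutant replicate 1, and 20, 17 and 19 without control replicates 1, 2 and 3. No paired analysis was possible because the labels give no replicate numbers, and those used here were assigned only to name libraries. Mpo, Elane and Ctsg rest on 0 to 11 fragments per library, and Camp on 3 to 17, which limits what these data can show of them.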
